A study of Mus musculus with 6 samples.

Results

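Interferon-stimulated genes are the genes a cell switches on when an interferon binds its surface receptor, and 39 of them were examined in mammary tumors of NeuT/ATTAC mice with and without the LXR agonist DMHCA. The genes were chosen by symbol from what is known of interferon responses in mouse, with earlier results of these data known, and every one of the 39 was found among the 55385 genes of the count tables. All 39 passed the filter on low counts. The question addressed was whether their transcript levels differed between DMHCA and control tumors.

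Type I interferons (the alpha and beta forms) bind the receptor made of Ifnar1 and Ifnar2, and type II interferon (gamma, made mainly by T and NK cells) binds Ifngr1 and Ifngr2. Receptor-bound Janus kinases then phosphorylate STAT proteins. Stat2 and Irf9 are subunits of the complex ISGF3, which binds the interferon-stimulated response element (ISRE), whereas the response to interferon gamma acts through the gamma-activated sequence (GAS). The products of the induced genes sense or degrade viral RNA, block viral assembly or attack the membranes around intracellular pathogens. In tumors, including mammary tumors, the same genes are used as a readout of interferon exposure of tumor, stromal and immune cells.

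All samples came from female mice carrying an activated rat ErbB2 transgene (NeuT) driven by the MMTV promoter, which is active in mammary epithelium, together with the ATTAC transgene, an FKBPv-caspase-8 fusion driven by the FABP4 promoter of fat cells. AP20187, given at 0.4 mg/kg 3 times per week from 6 weeks of age, dimerizes the fusion protein and removes part of the mammary fat, which fibrotic tissue replaces. The DMHCA group (3 libraries) was also fed 0.05% DMHCA in the diet from 8 weeks, a dose of about 100 mg/kg. The control group (3 libraries) carries the treatment label AP20187 Vehicle, which does not itself say whether these mice received AP20187, although the study describes both groups as NeuT/ATTAC+AP tumors. The tissue is labelled as mammary gland fibrosis, and epithelial markers (6 genes including Epcam, Krt8 and Erbb2) summed to 3140 to 4816 TPM (transcript abundance scaled for gene length and library size) per sample.

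The libraries held 46358735 to 63420673 expected counts. DMHCA libraries 1 and 3 were nearly the same. The coefficient of variation between them beyond counting noise was 0.0327, against 0.376 to 0.579 for the other 5 pairs within a group, and 18.2% of genes differed between them at a chi-square p under 0.05, against 82% to 87% in the other pairs. They were summed and counted as 1 sample, called DMHCA 1+3, which left 3 control and 2 DMHCA samples. Mitochondrial genes took 3.18% to 4.64% of counts in controls and 2.27% to 2.66% in DMHCA libraries. Control 3 stood apart in lymphocyte and fat cell markers. Its T and NK cell markers summed to 212.1 TPM against 4.79 to 26.95 TPM in the other 4 samples, and its B cell markers to 301.6 against 1.35 to 36.82 TPM. Its adipocyte markers summed to 913.6 TPM, against 202.6 in control 1 and 123.1 in control 2. Both DMHCA samples lay below every control in adipocyte markers, at 68.71 TPM in DMHCA 1+3 and 68.77 TPM in DMHCA 2. In bulk tissue such as this, fewer cells of a type and less RNA per cell cannot be told apart.

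RefSeq promoter windows (250 bases before to 50 after the transcription start, GRCm38.p6) were found for 28 of the 39 genes. The ISRE core, spelled GAAANNGAAA and searched on both strands with overlapping matches counted, was present in 17 of the 28 (60.7%), against 3.99% of all 27025 genes with a window. The GAS core, TTCNNNGAA, which reads the same on both strands, was present in 10 of the 28 (35.7%), against 9.55% of all genes, and 6 genes held both. All 7 guanylate-binding and immunity-related GTPase genes with a window held an ISRE core. The 250 bases before the start are shown for 6 genes, those with the smallest p-values among 7 that have an ISRE core before the start and are described sample by sample, to show where the element lies in genes whose levels are described here. Each is written 5′ to 3′ on the strand of the gene, and capitals mark ISRE cores, shown as their reverse complement where the match is on the opposite strand.
Bst2, chr8:71537473-71537722, minus strand: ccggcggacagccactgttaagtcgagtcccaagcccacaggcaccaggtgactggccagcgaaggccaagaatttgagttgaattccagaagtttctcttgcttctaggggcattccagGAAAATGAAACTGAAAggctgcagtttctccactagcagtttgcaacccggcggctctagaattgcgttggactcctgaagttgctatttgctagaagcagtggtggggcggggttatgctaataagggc
Gbp2, chr3:142620413-142620662, plus strand: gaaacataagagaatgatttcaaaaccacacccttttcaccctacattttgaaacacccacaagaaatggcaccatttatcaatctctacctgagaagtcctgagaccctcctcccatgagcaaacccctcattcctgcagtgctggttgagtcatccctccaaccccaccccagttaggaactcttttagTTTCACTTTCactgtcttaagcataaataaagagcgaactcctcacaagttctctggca
Rsad2, chr12:26456453-26456702, minus strand: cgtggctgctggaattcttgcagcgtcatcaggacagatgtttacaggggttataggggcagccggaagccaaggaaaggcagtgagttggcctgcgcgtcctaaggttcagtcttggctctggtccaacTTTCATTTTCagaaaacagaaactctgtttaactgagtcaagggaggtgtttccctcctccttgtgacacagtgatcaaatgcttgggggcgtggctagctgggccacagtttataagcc
Gbp5, chr3:142496684-142496933, plus strand: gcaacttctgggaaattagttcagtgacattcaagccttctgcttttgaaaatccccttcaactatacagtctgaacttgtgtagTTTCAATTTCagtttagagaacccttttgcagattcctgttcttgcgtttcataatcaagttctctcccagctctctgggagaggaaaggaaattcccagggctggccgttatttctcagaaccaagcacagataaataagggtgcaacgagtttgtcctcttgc
Isg15, chr4:156200819-156201068, minus strand: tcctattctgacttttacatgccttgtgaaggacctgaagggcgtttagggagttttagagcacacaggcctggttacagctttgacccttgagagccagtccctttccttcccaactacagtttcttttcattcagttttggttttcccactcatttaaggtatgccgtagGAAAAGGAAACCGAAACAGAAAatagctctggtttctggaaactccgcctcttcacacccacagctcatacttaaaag
Gbp3, chr3:142559794-142560043, plus strand: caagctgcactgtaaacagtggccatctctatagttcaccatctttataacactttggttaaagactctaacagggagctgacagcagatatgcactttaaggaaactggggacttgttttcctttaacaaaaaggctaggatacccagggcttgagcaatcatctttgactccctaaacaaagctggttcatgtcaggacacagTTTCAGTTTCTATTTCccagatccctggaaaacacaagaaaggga
In Bst2 a pair of overlapping cores runs from 130 to 115 bases before the start, in Isg15 3 overlapping cores run from 78 to 57 bases before it, and in Gbp3 a pair lies 45 to 30 bases before it. The single cores of Gbp2, Rsad2 and Gbp5 begin 59, 120 and 165 bases before the start. The Gbp5 sequence also holds 2 GAS cores and that of Bst2 holds 1. The median log2 fold change with DMHCA was 0.13 over the 17 genes with an ISRE core and 0.25 over the 11 without.

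Levels of the interferon-stimulated genes differed widely between tumors of the same group. Over the 39 genes, the highest control exceeded the lowest by a median of 4.01-fold in counts normalized to a common library size, against 1.8-fold over the 19191 genes with counts in every sample, and by more than 2-fold for 32 of 39 (82.1%, against 41.8% of those genes). The ratio ranged from 1.47 for Dhx58 to 27.3 for Gbp4. In these normalized counts control 2 was the lowest of the 5 samples for 34 of the 39. Among controls alone it was the lowest for 36 of 39 (92.3%, against 38.6% of all genes), and the exceptions were Irf1, Isg20 and Ifi27. Control 3 was the highest control for 34 of 39 (87.2%, against 37% of all genes).

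The DMHCA samples were also unlike each other. In normalized counts, DMHCA 1+3 exceeded DMHCA 2 for all 39 genes, against 52.1% of all genes, by a median of 1.93-fold (1.03-fold over all genes) and by up to 10.1-fold for Oas2. On the TPM scale Mx1 had the opposite order (7.79 TPM in DMHCA 1+3 and 8.86 in DMHCA 2). The highest of the 5 samples in normalized counts was DMHCA 1+3 for 19 genes, control 3 for 18 and control 2 for Isg20 and Ifi27, although Ifi27 was highest in control 3 in TPM (563.00, against 476.59 in control 2). Summed over the 39 genes, the level was 2389 TPM in control 1, 1158 in control 2 and 3256 in control 3, and 3737 in DMHCA 1+3 and 1915 in DMHCA 2. The groups therefore overlapped, and DMHCA 2 lay between control 2 and control 1.

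**Figure D1:**
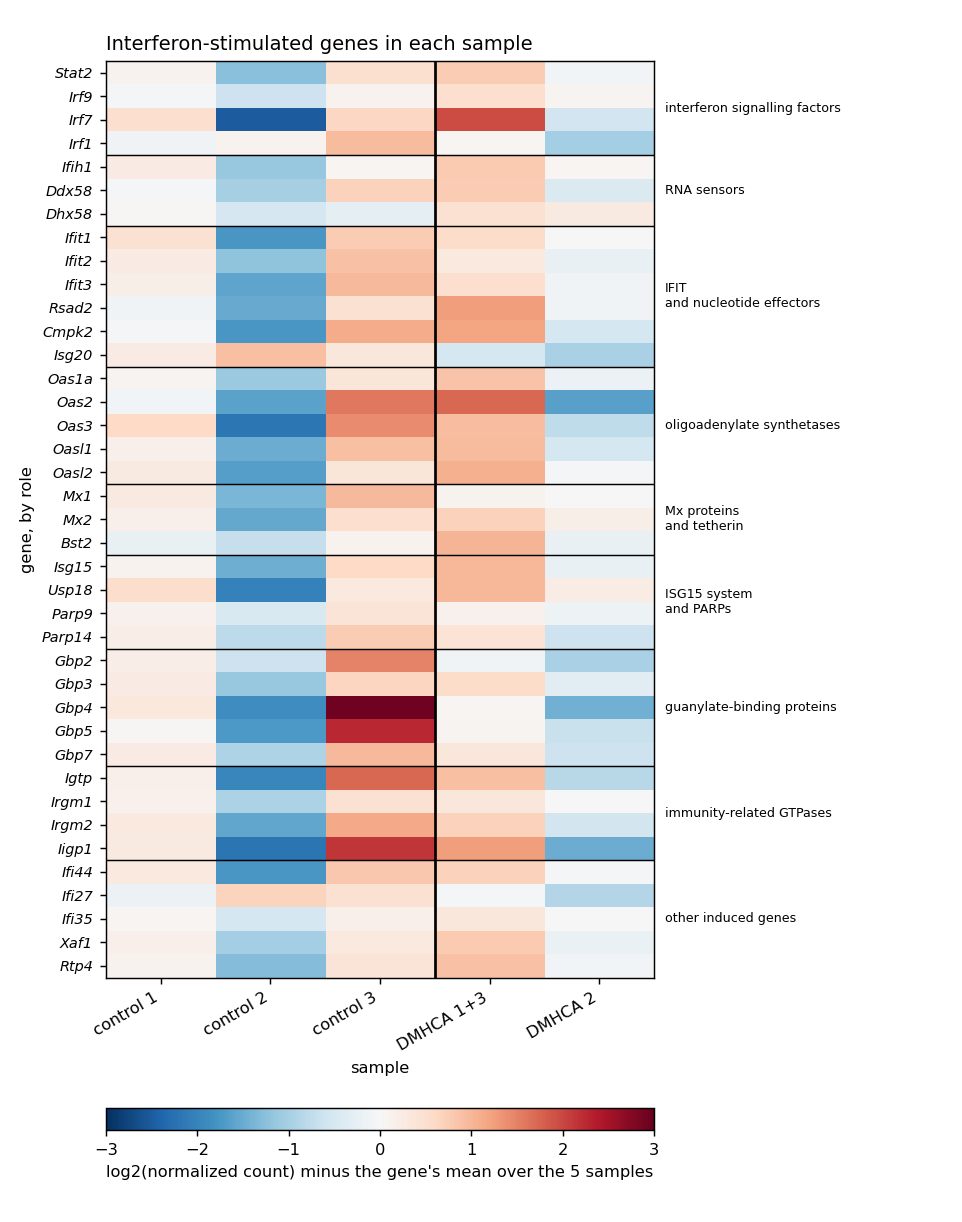
Heat map of the 39 interferon-stimulated genes (rows, grouped by role) in the 3 control and 2 DMHCA samples (columns). Color gives log2 of the normalized count minus the gene's mean over the 5 samples. Control 2 is the lowest sample in 34 rows, and DMHCA 1+3 is above DMHCA 2 in all 39.

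Across genes, no member passed the test between groups. In edgeR's quasi-likelihood test, with p-values of 19535 genes adjusted together by the Benjamini-Hochberg method, the smallest adjusted p of a member was 0.648, and 0% of all genes passed an adjusted p of 0.05. At an unadjusted p under 0.05, 1 member was called (Isg20, lower with DMHCA), or 1 of 39 against 7.58% of all genes. DESeq2 run on the 6 libraries, which treats DMHCA libraries 1 and 3 as separate, called 1 member (again Isg20, adjusted p = 0.025) and 4.44% of all genes. Mean levels were higher with DMHCA for 24 members and lower for 15 (38.5%, against 53.2% of all genes). With limma on log2(TPM + 1), 33 were higher and 6 lower, with a median log2 fold change of 0.47. In edgeR the median log2 fold change was 0.24, against -0.05 over all genes, and members ranged from -2.11 (Gbp4) to 1.13 (Irf7). In normalized counts, groups did not overlap for 1 member that was higher with DMHCA (Dhx58, against 13.1% of all genes) and for 1 that was lower (Isg20, against 12.7%). In TPM they did not overlap for 3 members that were higher (Dhx58, Ifi35 and Irf9, against 20.1% of all genes) and for 1 that was lower (Isg20, against 7.03%). On either scale these shares of members are below those of all genes.

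These counts and the median moved with the samples included. Without control 2, which was low in nearly all members, 24 members were lower with DMHCA and the median was -0.18. Without control 3, which was high, 5 were lower and the median was 0.68. Without DMHCA 2, which leaves 1 DMHCA sample, 7 were lower and the median was 0.48. No member passed the adjusted threshold in any of these.

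**Figure D2:**
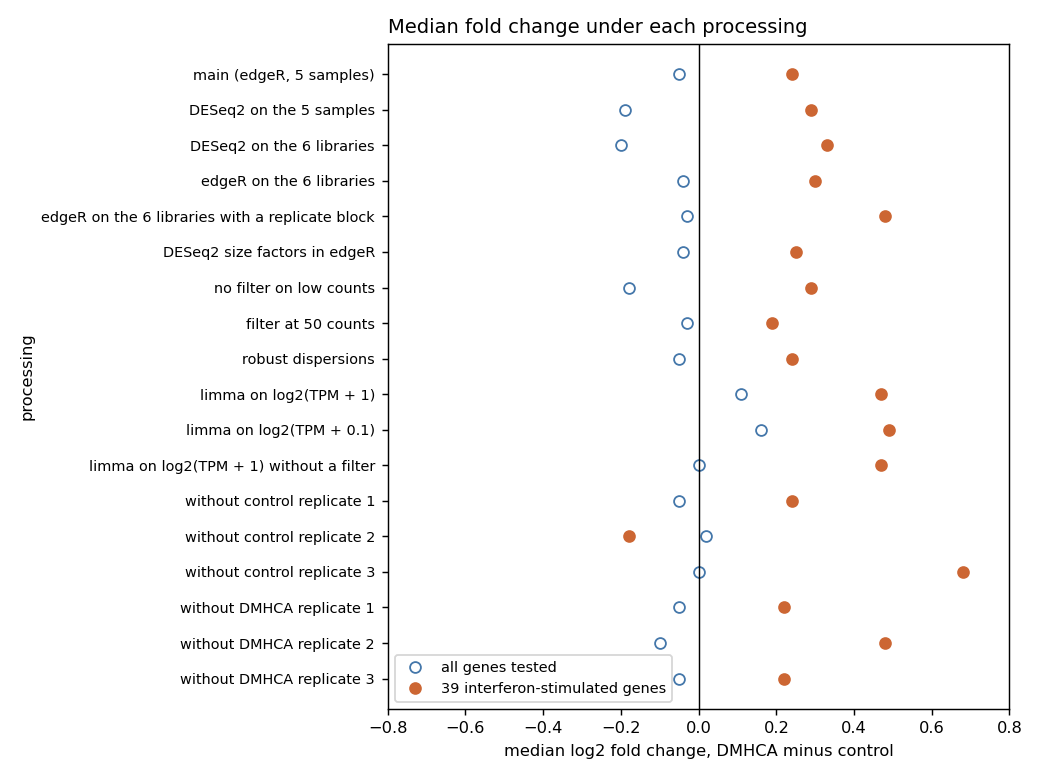
Median log2 fold change (DMHCA minus control, horizontal axis) of the 39 interferon-stimulated genes (filled) and of all genes tested (open) under each way of processing (vertical axis). The median of the 39 genes lies at 0.24 as reported, at -0.18 without control 2 and at 0.68 without control 3.

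Among the factors that carry or amplify the interferon signal, 3 of 4 had a higher mean with DMHCA and none passed the test (median log2 fold change 0.46, and 0.19 without control 2, 0.71 without control 3, 0.78 without DMHCA 2 and 0.75 with limma on log2(TPM + 1)). Irf7 (ENSMUSG00000025498, chromosome 7, 141262706 to 141266481), the transcription factor that amplifies type I interferon production, had normalized counts of 10331 in control 1, 1286 in control 2 and 11132 in control 3, and of 28266 in DMHCA 1+3 and 4900.1 in DMHCA 2. It was highest in DMHCA 1+3 and lowest in control 2, and DMHCA 2 lay below 2 of the controls. The log2 fold change was 1.13 (SE 0.98, edgeR adjusted p = 0.748), and it was 0.63 without control 2 and 1.94 without DMHCA 2. Irf7 overlaps exons of Phrf1 on the opposite strand, and the strand setting of the counting is not given in the sources used here, so reads of the pair may be mixed.

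Irf9, the DNA-binding subunit of ISGF3, had normalized counts of 6130.2, 4088 and 6847 in controls 1 to 3, and of 8929.8 and 6673 in DMHCA 1+3 and DMHCA 2 (log2 fold change 0.46, SE 0.31, edgeR adjusted p = 0.703). Its values spread least within this group of factors, and control 3 lay above DMHCA 2. In TPM both DMHCA samples (87.46 and 71.19) lay above every control (60.06, 29.60 and 61.42). Without control 2 its log2 fold change was 0.28, and without DMHCA 2 it was 0.70. The annotated exons of Irf9 overlap those of Rnf31 on the same strand, so reads may be shared between them. Irf1, a transcription factor induced most strongly by interferon gamma, had 4309, 4946 and 8909.9 normalized counts in the controls and 4754 and 2284 in the DMHCA samples (log2 fold change -0.78, SE 0.46, edgeR adjusted p = 0.671). It was highest in control 3 and lowest in DMHCA 2, and its log2 fold change was -0.40 without control 3 and -0.30 without DMHCA 2. Stat2, the other ISGF3 subunit among the members, had a log2 fold change of 0.46 with an SE of 0.52.

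The cytosolic sensors of viral RNA all had a higher mean with DMHCA, and none passed the test (median log2 fold change 0.60, and 0.32 without control 2). Dhx58 (ENSMUSG00000017830, chromosome 11, 100694884 to 100704271) encodes LGP2, which regulates the other members of this family. It had normalized counts of 2906, 1971 and 2335 in controls 1 to 3, and of 3879 and 3397 in DMHCA 1+3 and DMHCA 2. Every DMHCA value lay above every control value, by 1.17-fold at the nearest pair. The log2 fold change was 0.60 (SE 0.26, edgeR adjusted p = 0.648, unadjusted p = 0.0599), and between 0.48 and 0.76 when any library was left out. An antisense gene, Dhx58os, overlaps its exons.

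Ifih1, which encodes the sensor of long double-stranded RNA MDA5, had normalized counts of 6718, 2589.5 and 5928 in the controls, and of 9835 and 5890.1 in the DMHCA samples (log2 fold change 0.63, SE 0.46, edgeR adjusted p = 0.711). Control 1 lay above DMHCA 2. Control 3 was close to DMHCA 2, just above it in normalized counts and below it in TPM (27.40 against 30.88). Leaving out control 2 gave 0.32 on the log2 scale, and leaving out DMHCA 2 gave 1.0. Ddx58, which encodes the RNA sensor RIG-I, had 4748, 2442 and 7853 normalized counts in the controls and 8273 and 3628 in the DMHCA samples (log2 fold change 0.25, SE 0.55, edgeR adjusted p = 0.906). Its direction turned without control 2, to -0.08, and it was at 0.72 without control 3 and 0.77 without DMHCA 2.

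Of the 6 genes made up of the IFIT family, whose products bind viral RNA, and the enzymes grouped with them, 4 had a higher mean with DMHCA and 2 a lower mean, and the median log2 fold change was 0.09. None passed the adjusted threshold, and without control 2, 1 of the 6 was higher with DMHCA (median -0.35). The median was 0.61 without control 3 and 0.40 without DMHCA 2, and 0.58 with limma on log2(TPM + 1), where 5 were higher. Isg20 (ENSMUSG00000039236, chromosome 7, 78913424 to 78920396), an exonuclease that degrades single-stranded RNA, had normalized counts of 850.5, 1329 and 905.7 in controls 1 to 3, and of 497.0 and 361.1 in DMHCA 1+3 and DMHCA 2. Each control lay above each DMHCA sample, and the highest value was in control 2, where most other members were lowest. The means were 1028.5 ± 261.9 (SD, n = 3) in controls and 429.1 ± 96.1 (SD, n = 2) with DMHCA. The log2 fold change was -1.26 (SE 0.39), with an edgeR adjusted p of 0.648 and an unadjusted p of 0.0165. It stayed between -1.37 and -1.02 when a control was left out, and was -1.0 (SE 0.52, edgeR unadjusted p = 0.104) without DMHCA 2, which leaves 1 DMHCA sample.

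Rsad2, the radical SAM enzyme viperin that makes a chain-terminating nucleotide, had normalized counts of 1723, 653.7 and 2535 in the controls and of 4442 and 1713.5 in the DMHCA samples (log2 fold change 0.91, SE 0.62, edgeR adjusted p = 0.7). DMHCA 1+3 was the highest sample, and DMHCA 2 lay within the controls. Its log2 fold change was 0.54 without control 2, 1.37 without control 3 and 1.49 without DMHCA 2. Ifit3, an RNA-binding partner of Ifit1, had 3809.5, 1130 and 6609.8 normalized counts in the controls and 4796 and 3144 in the DMHCA samples, with both DMHCA samples inside the control range (log2 fold change 0.04, SE 0.66). Its log2 fold change was -0.38 without control 2, 0.68 without control 3 and 0.37 without DMHCA 2. Cmpk2, a nucleotide kinase, had a log2 fold change of 0.37 (SE 0.82), and Ifit1 and Ifit2 of 0.13 and -0.14 (SE 0.67 and 0.58).

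Oligoadenylate synthetases make the second messenger that activates RNase L. Of the 5 members (the OAS-like genes Oasl1 and Oasl2 included), 4 had a higher mean with DMHCA, none passed the test and the median log2 fold change was 0.34. Without control 2, 2 of the 5 were higher and the median was -0.13, while it was 0.83 without control 3 and 0.99 without DMHCA 2. Oasl2, the highest of them in TPM, had normalized counts of 7971, 2115 and 8477 in the controls and of 13958 and 6419.8 in the DMHCA samples (log2 fold change 0.72, SE 0.63, edgeR adjusted p = 0.747, and 0.32 without control 2 and 1.22 without DMHCA 2). It followed the common order, with control 2 lowest and DMHCA 1+3 highest. The DMHCA samples differed most for Oas2, at 5494 and 546.4 normalized counts. Its DMHCA 2 value was close to control 2, just below it in normalized counts (553.9) and above it in TPM (3.86 against 3.26).

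Mx proteins are dynamin-like GTPases that trap viral components, and tetherin (Bst2) holds budding virions at the cell surface. Bst2, with the highest mean TPM of all members, had 360.07, 188.49 and 404.72 TPM in the controls and 814.63 and 379.30 TPM in the DMHCA samples. Its normalized counts were 10001, 7243 and 12526 in the controls and 23763 and 9959 in the DMHCA samples, so that DMHCA 1+3 was highest and DMHCA 2 lay just below control 1. The log2 fold change of Bst2 was 0.76 (SE 0.44, edgeR adjusted p = 0.669), and it was 0.59 without control 2 and 1.31 without DMHCA 2. Over the 3 genes the median was 0.51. It was 0.12 without control 2, 0.90 without control 3 and 0.80 without DMHCA 2. Mx2, which the annotation classes as a polymorphic pseudogene, and Mx1 had log2 fold changes of 0.51 (SE 0.59) and -0.19 (SE 0.64).

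Isg15, a ubiquitin-like protein that is attached to newly made proteins, had normalized counts of 2805 in control 1, 942.7 in control 2 and 3958 in control 3, and of 5231 in DMHCA 1+3 and 2265 in DMHCA 2 (log2 fold change 0.55, SE 0.62, edgeR adjusted p = 0.798). Its log2 fold change was 0.16 without control 2, 0.99 without control 3 and 1.07 without DMHCA 2. Again control 2 was lowest, DMHCA 1+3 highest and DMHCA 2 inside the control range. Usp18, the protease that removes Isg15 and restrains the type I receptor, had a log2 fold change of 0.70 (SE 0.69). The ADP-ribosyltransferase family genes Parp9 and Parp14 were at -0.07 (SE 0.32) and -0.20 (SE 0.51).

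**Figure D3:**
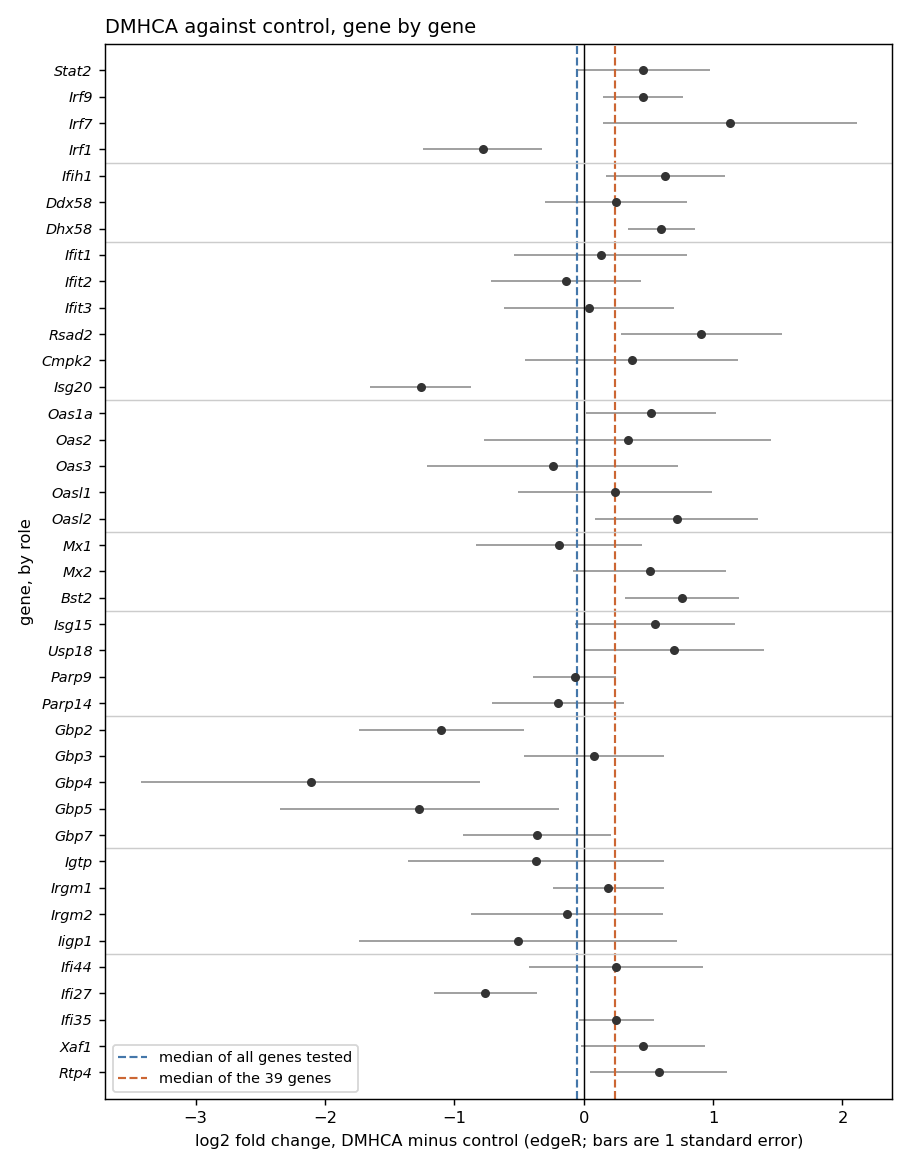
Log2 fold change of each of the 39 genes (vertical axis, grouped by role in the order of the heat map), DMHCA minus control, with bars of 1 standard error from edgeR. Dashed lines mark the medians of all genes tested (-0.05) and of the 39 genes (0.24). Irf7 is the highest and Gbp4 the lowest.

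Guanylate-binding proteins, large GTPases that assemble on pathogen membranes and respond strongly to interferon gamma, leaned the other way. Of the 5 members, 4 had a lower mean with DMHCA, none passed the test and the median log2 fold change was -1.10. Gbp4 (ENSMUSG00000079363, chromosome 5, 105115767 to 105139586) had normalized counts of 952.1, 209.9 and 5739 in controls 1 to 3, and of 786.6 and 278.6 in DMHCA 1+3 and DMHCA 2. Control 3 was 6.03-fold above the next highest sample, and the other 4 samples overlapped. The log2 fold change was -2.11 (SE 1.31, edgeR adjusted p = 0.682) and it was -0.13 without control 3 and -0.74 with limma on log2(TPM + 1). Gbp4 shares exon sequence on its strand with Gbp8 and Gbp9, so its counts depend on how reads were split among them.

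Gbp2, Gbp3, Gbp5 and Gbp7 lie together on chromosome 3, between 142493978 and 142638008. Gbp5, which promotes inflammasome assembly, had 402.8, 119.3 and 1896 normalized counts in the controls and 416.8 and 248.7 in the DMHCA samples (log2 fold change -1.27, SE 1.08, edgeR adjusted p = 0.744). Gbp2 had 4932, 2799 and 12127.5 in the controls and 3958 and 2195 with DMHCA (log2 fold change -1.10, SE 0.64, edgeR adjusted p = 0.669). Both were highest in control 3, and without it Gbp5 turned to 0.34 and Gbp2 was at -0.33. Gbp2 was at -0.69 without DMHCA 2. Gbp3 had 6489, 2474 and 8519 in the controls and 7900.1 and 4375 with DMHCA, with both DMHCA samples inside the control range (log2 fold change 0.08, SE 0.54, and -0.28 without control 2, 0.45 without control 3 and 0.48 without DMHCA 2). Over the 5 genes the median log2 fold change was 0.14 without control 3, -1.46 without control 2 and -0.69 without DMHCA 2. With limma on log2(TPM + 1), 3 of the 5 were lower and the median was -0.38.

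Immunity-related GTPases, which act on the vacuoles of intracellular parasites and are likewise known as interferon gamma targets, had no member past the test. Iigp1 had normalized counts of 10333, 1881 and 38259 in controls 1 to 3 and of 20479.8 and 3069 in the DMHCA samples (log2 fold change -0.51, SE 1.23, edgeR adjusted p = 0.913). The controls alone spanned 20.3-fold and enclosed both DMHCA samples. Iigp1 was at 0.94 without control 3, at -1.04 without control 2 and at 0.34 without DMHCA 2. Of the 4 members, 3 had a lower mean with DMHCA (median -0.25), none was lower without control 3 (median 0.67) or without DMHCA 2 (0.36), and all 4 were lower without control 2 (-0.72). With limma on log2(TPM + 1) none was lower (0.26). The annotated exons of Igtp and Irgm2, on chromosome 11, overlap on 1 strand, so reads may be shared between them.

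**Figure D4:**
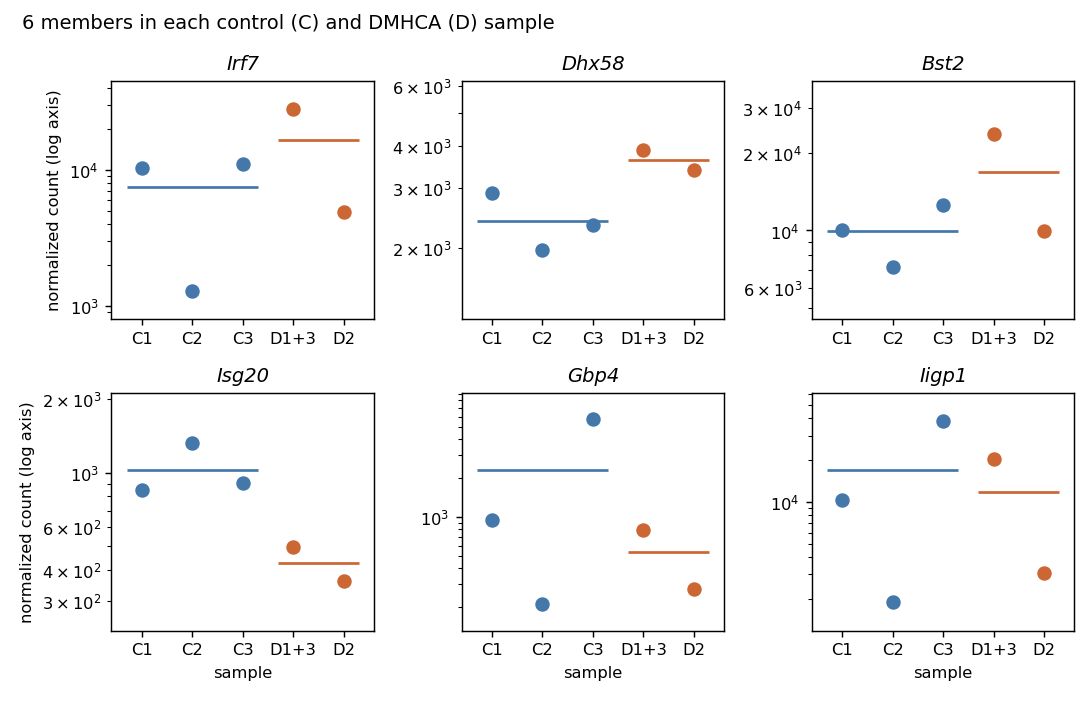
Normalized counts (log axis) of 6 members in controls 1 to 3 (C1 to C3, blue), DMHCA 1+3 (D1+3) and DMHCA 2 (D2, orange), with horizontal lines at the group means. Dhx58 and Isg20 are the members without overlap between groups, whereas Gbp4 and Iigp1 reach their highest value in control 3.

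Control 3, where the guanylate-binding genes and immunity-related GTPases were high, also held the most lymphocyte, dendritic cell, macrophage, fibroblast and adipocyte marker RNA. Of the 12 T and NK cell markers, 10 were highest in control 3 and 10 were lowest in control 2, and their summed level was 26.95, 4.79 and 212.1 TPM in controls 1 to 3, and 18.77 and 8.47 TPM in DMHCA 1+3 and DMHCA 2. All 6 B cell markers were highest in control 3 and lowest in control 2. The 6 markers of plasmacytoid and conventional dendritic cells, the former a main source of type I interferon, summed to 4.71, 1.55 and 17.55 TPM in controls and 2.785 and 2.23 TPM with DMHCA. DMHCA 1+3, the sample with the highest summed level of the 39 genes, was thus below control 1 in all 3 of these lists. Macrophage markers ranged from 660.6 TPM in DMHCA 2 to 948.1 TPM in control 3. Fibroblast markers ranged from 327.5 TPM in control 2 to 1288 TPM in control 3. No gene of the 5 lists of lymphocyte, dendritic cell, macrophage and fibroblast markers was listed at 0. The part of these cells in the results was not tested.

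**Figure D5:**
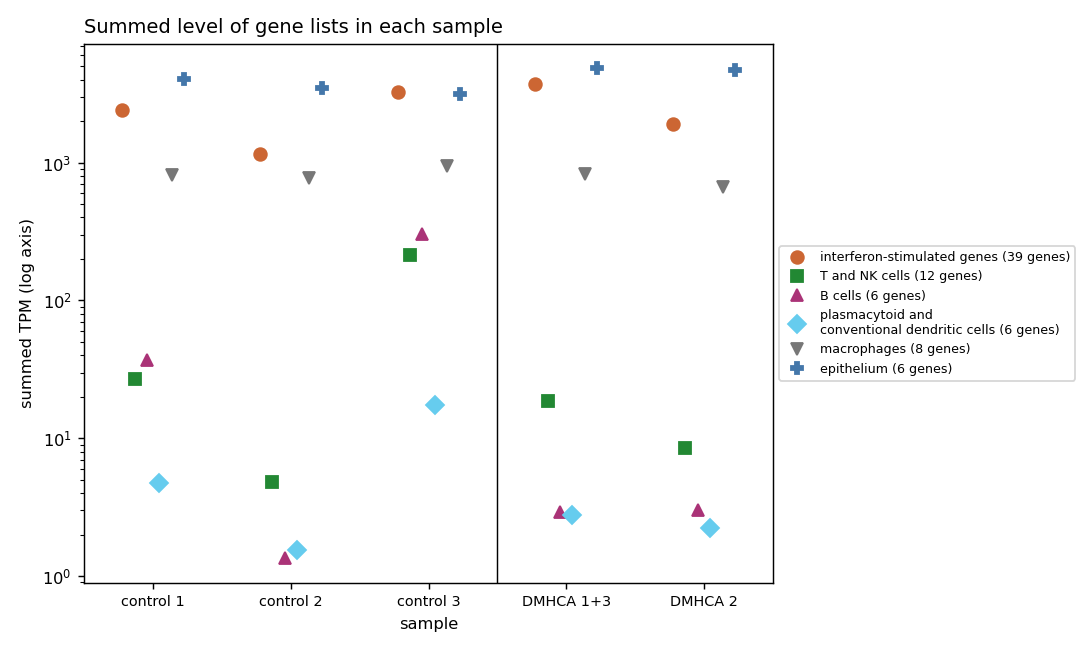
Summed TPM (log axis) in each sample of the 39 interferon-stimulated genes and of marker lists for T and NK cells, B cells, dendritic cells, macrophages and epithelium. T and NK, B, dendritic cell and macrophage markers peak in control 3, while the interferon-stimulated genes are highest in DMHCA 1+3.

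The 5 members outside these families gave a median log2 fold change of 0.25, which was 0.08 without control 2, 0.68 without control 3, 0.61 without DMHCA 2 and 0.67 with limma on log2(TPM + 1). Ifi27, a small membrane protein gene that is the second highest member in TPM, had normalized counts of 10582.5, 18874 and 16283 in the controls and of 11567 and 6482 in the DMHCA samples (log2 fold change -0.76, SE 0.40, edgeR adjusted p = 0.651). Like Isg20, it was highest in control 2 and lowest in DMHCA 2, and its log2 fold change was -0.35 without DMHCA 2. Rtp4, a chaperone of membrane receptors, Xaf1, a pro-apoptotic factor, Ifi35 and Ifi44 had log2 fold changes of 0.58, 0.46, 0.25 and 0.25 (SE 0.53, 0.48, 0.29 and 0.67).

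The interferons themselves were barely detected. Of 21 ligand genes, 1 passed the filter (Ifnz, log2 fold change 0.02, SE 1.08), and 12 interferon alpha genes were listed at 0 in every sample. Ifnb1, which encodes interferon beta, had expected counts of 1, 5 and 1 in control libraries 1 to 3 and of 3, 7 and 2 in DMHCA libraries 1 to 3. Ifng, which encodes interferon gamma, had 4, 2 and 37 counts in the controls and 0, 4 and 0 with DMHCA. Its highest value was in control 3, the sample with the most T and NK cell marker RNA, and neither gene passed the filter, since Ifng was above 10 counts in 1 library alone.

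Of 20 receptor and signalling genes that are not members, 14 had a lower mean with DMHCA, none passed the adjusted threshold and the median log2 fold change was -0.25. Without control 3, 11 were lower (median -0.07), and with limma on log2(TPM + 1), 10 were (-0.06). Ifngr1, the ligand-binding chain of the interferon gamma receptor, had normalized counts of 4291, 4050.5 and 7749 in the controls and of 2673 and 3000.1 in the DMHCA samples (log2 fold change -0.92, SE 0.36, edgeR unadjusted p = 0.0398, adjusted p = 0.648). Ifnar2, a chain of the type I receptor, had 4693, 6637 and 5116 in the controls and 3514 and 3768 with DMHCA (log2 fold change -0.59, SE 0.26, edgeR adjusted p = 0.648). Socs3, an inhibitor of Janus kinase signalling, had 1563, 1811 and 1632 in the controls and 861.4 and 762.9 with DMHCA (log2 fold change -1.04, SE 0.28, edgeR unadjusted p = 0.0085, adjusted p = 0.648). These 3 genes, named for their small p-values, had every DMHCA value below every control value in normalized counts. In TPM the groups overlapped for Ifngr1, at 36.83 in DMHCA 2 against 34.68 in control 2. Over the list, in normalized counts, groups did not overlap for 5 of 20 genes that were lower (12.7% of all genes) and for 1 that was higher (13.1% of all genes).

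The partner chains Ifnar1 and Ifngr2 had log2 fold changes of -0.01 (SE 0.27) and -0.27 (SE 0.25). Of the kinases, Jak1 was at 0.19 (SE 0.46), Jak2 at -0.01 (SE 0.28) and Tyk2 at -0.22 (SE 0.32).

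Genes that sense nucleic acids upstream of interferon had 11 of 22 members higher and 11 lower with DMHCA (median log2 fold change 0.00), and none passed the adjusted threshold. The number higher was 14 without control 3 and 15 with limma on log2(TPM + 1), and 9 with a minimum count of 50. Tmem173, which encodes the adaptor STING, had normalized counts of 3837, 3503.5 and 3941 in the controls and of 2058 and 1159 in the DMHCA samples (log2 fold change -1.22, SE 0.32, edgeR unadjusted p = 0.00718, adjusted p = 0.648). Cgas, the DNA sensor that signals through STING, had 386.6, 428.9 and 331.0 in the controls and 870.4 and 507.0 with DMHCA (log2 fold change 0.85, SE 0.41, edgeR adjusted p = 0.648). Mavs, the adaptor of the RNA sensors, had 3071, 2931 and 1818 in the controls and 3999 and 3914 with DMHCA (log2 fold change 0.60, SE 0.30, edgeR adjusted p = 0.648). Tmem173, Cgas and Mavs, named for their small p-values, did not overlap between groups, and Tmem173 differed in sign from the other two. Over the list, in normalized counts, groups did not overlap for 4 of 22 genes that were higher (13.1% of all genes) and for 2 that were lower (12.7% of all genes).

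A further list of 73 interferon-stimulated genes, of which 72 were tested, leaned lower than the 39, with 28 higher and 44 lower with DMHCA and a median log2 fold change of -0.12. No gene of it passed the adjusted threshold. Its median was -0.41 without control 2, 0.38 without control 3 and 0.28 without DMHCA 2, and 0.06 with limma on log2(TPM + 1), where 40 were higher. The smallest p-values were those of 3 genes, each with an edgeR adjusted p of 0.648. Znfx1, an RNA helicase gene, had a log2 fold change of 1.62 (SE 0.50) and an unadjusted p of 0.0153. Ciita, the activator of MHC class II genes, was at -1.51 (SE 0.53) with an unadjusted p of 0.0267, and Ifi205, of the DNA-sensing Ifi200 family, at -1.77 (SE 0.72) with an unadjusted p of 0.0455.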

How the data were processed

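Tumor RNA was measured by RNA sequencing in 6 libraries (3 control, 3 DMHCA). The authors checked reads with FastQC 0.11.9, trimmed adapters with Cutadapt 2.9 and counted reads per gene with RSEM 1.3.1 on Bowtie2 2.4.1 against mouse mm10, and used DESeq2 1.26 for their own comparison. The deposited files give RSEM expected counts, TPM and FPKM per gene in each library. FPKM was not used here. RSEM divides reads that match several genes, so expected counts need not be whole, and 28 of the 39 genes had a count that was not whole in at least 1 library.

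Expected counts were rounded, DMHCA libraries 1 and 3 were summed, and the groups were tested in edgeR 4.0.16 under R 4.3.3 (quasi-likelihood F-test, TMM normalization, filterByExpr at 10 counts and 15 in total, Benjamini-Hochberg adjustment over 19535 genes). Fold changes are DMHCA over control on the log2 scale, and the SE was derived from the F statistic. TPM values were used for levels between genes and were averaged for the summed pair. The tumors came from separate mice according to the study, and the counts do not show whether DMHCA libraries 1 and 3 did. DESeq2 1.42.0 and limma 3.58.1 on log2(TPM + 1) or log2(TPM + 0.1) served as alternatives, beside other filters, size factors, robust dispersions, a replicate block and leaving out each library. Scripts were run on simulated counts, where a check required only that the direction of large changes was right for most changed genes.

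Members, role groups and lists were chosen with earlier results of these data known. Values in every sample are given for 18 members: the highest in TPM of each group, the 10 with the smallest p and the 3 with the largest log2 fold change each way. Of each pathway list, the 3 smallest p are named, and the main ligands, receptors and kinases always. The result for 1 gene of that rule is not reported here. Coordinates are from GENCODE M21 (GRCm38), and promoter windows and their sequences are RefSeq's (GRCm38.p6).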

Additional observations from a re-analysis of the deposited data

How the results depend on the processing

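Leaving out each library in turn moved the number of members with a lower mean after DMHCA between 5 (without control 3) and 24 (without control 2), and their median log2 fold change between -0.18 and 0.68, against a pooled SD of 0.904 between samples of a group for the median member level. The counts of genes and of members past an adjusted p of 0.05 in edgeR stayed at 0. Without a library, direction turned for 19 of the 39 members (9 without control 2, 10 without control 3 and 8 without DMHCA 2), among them 5 of the 18 described sample by sample: Ddx58 (-0.08 to 0.77), Gbp3 (-0.28 to 0.48), Ifit3 (-0.38 to 0.68), Gbp5 (-1.78 to 0.34) and Iigp1 (-1.04 to 0.94). Leaving out DMHCA 2 leaves 1 sample, assumed to vary like the controls. Over all 17 alternatives, 15 members were higher in every one, 5 were lower in every one and 19 changed direction in at least 1.

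Genes past the adjusted threshold numbered 242 with DESeq2 on the 5 samples, 887 with DESeq2 on the 6 libraries, where 1 member passed (Isg20, log2 fold change -1.17), and 16 with edgeR and no filter. With limma on TPM, 6 members were lower under either pseudocount and without a filter, with a median of 0.47, 0.49 and 0.47, Iigp1 turned to 0.01, 0.03 and 0.01, and the median of all genes moved from -0.05 to 0.11 with a pseudocount of 1 and 0.16 with a pseudocount of 0.1. Below the median of all genes were 10 members with either pseudocount and 6 without a filter, against 15 as reported. DESeq2 on the 5 samples placed the median of all genes at -0.19 over the larger number of genes it tested. A minimum count of 50 turned Ifit3 to -0.01.

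The labels number the libraries 1 to 3 in both groups, without saying that a number joins mice. The study describes tumors of separate mice, so the numbers were not taken as pairs. Deviations from group means correlated at -0.0363, 0.31 and 0.318 for same-numbered libraries. For other combinations the correlations ran from -0.357 to 0.307. With few libraries, and DMHCA libraries 1 and 3 nearly the same, these correlations cannot decide whether a number joins mice. With a replicate block on the 6 libraries, 7 members were lower with DMHCA (median 0.48). The guanylate-binding genes had a median of -0.33, the immunity-related GTPases of 0.32, and Iigp1 was at 0.27. In this edgeR fit 15 of 39 members had an unadjusted p under 0.05, where 17.2% of all genes did. No member passed the adjusted threshold. The fit counts DMHCA libraries 1 and 3 as separate samples, so its p-values treat near copies as independent. The lowest count of a member in any library was 104.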

Other observations

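Znfx1, the interferon-induced RNA helicase with the smallest p of the further 73 genes, lies on chromosome 2 (167035793 to 167063015, GRCm38). Its normalized counts were 4455, 1943 and 4959 in controls 1 to 3, 7381 in DMHCA 1+3 and 15862 in DMHCA 2. Unlike all 39 members in normalized counts, it was higher in DMHCA 2 than in DMHCA 1+3. Its neighbours on the chromosome shared this: of 31 tested genes within 1 Mb on either side, 21 were highest in DMHCA 2, against 20.5% of all genes, and their median log2 fold change was 1.06. The neighbours were examined after the value of Znfx1 was seen, and a cause was not tested.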
